A study of Mus musculus with 11 samples.

Results

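The 185 genes whose symbol begins with Ighv are the variable (V) segments of the immunoglobulin heavy-chain locus, and they were taken by that symbol from 55487 genes counted by bulk RNA sequencing. Of the 185 segments, 70 are annotated as V pseudogenes. The other 115 are called V genes here, and 2 of them carry a separate annotation class, IG_LV_gene. An IG_LV_gene entry named Ighv5-8 lies on the opposite strand within a pseudogene of the same symbol, so the 185 entries are not all distinct stretches. Both Ighv5-8 entries had 0 counts in every library. The libraries came from acute myeloid leukaemia (AML) of mice that all carried 2 oncogenes, NHD13 (a NUP98-HOXD13 fusion transgene) and Flt3-ITD (a receptor kinase gene with an internal repeat that switches it on). In 6 libraries the mice were Ifnar1 +/- and in 5 they were Ifnar1 -/-, which removes a subunit of the type I interferon receptor. The driver of the transgene's expression, the age of the mice, and whether each library came from a separate mouse were not given in the sources used here, so the spread between libraries may in part be technical.

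V segments are the part of the heavy-chain gene that a developing B cell joins to a D and a J segment. RAG1 and RAG2 cut the DNA, and the joined exon is then spliced to a constant gene, first Ighm. D-J joining comes first and can also occur in cells outside the B lineage. Segments near the D segments belong mainly to the families Ighv2 and Ighv5, and the large family Ighv1 with Ighv8 fills the far end. Unrearranged V segments can also be transcribed. A gene-level count does not tell rearranged from unrearranged transcripts, and in a bulk library fewer cells of a type cannot be told apart from less RNA per cell.

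In GENCODE M21 on GRCm38 the segments span 2437 kb of chromosome 12, from 113572927 to 116010093, with the J segments and constant genes below that range. Of the 185, 183 lie on the minus strand, so order along the locus is given here from 1, nearest the D segments, to 185. Annotated exons of a segment add up to 244 to 480 bases (median 351), so counts of different segments stand for targets of similar length.

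The last 300 bases of the V exons of 7 segments, each 305 to 317 bases long, are shown because the results turn on them. Ighv7-4, Ighv14-4, Ighv1-7 and Ighv1-5 are among the most abundant in libraries rich in B-lineage transcripts, Ighv5-9-1 leads in the library with the most V counts, and Ighv1-77 and Ighv1-78 lead in libraries poor in such transcripts. Each is given 5′ to 3′ on the sense strand, from GENCODE M21 transcripts, and capitals mark the TGT codon of the conserved cysteine after which the third complementarity-determining region begins. The codon was taken as the last in-frame TGT after a C, on the printed strand. CTGT occurred in the last 30 bases of 77.8% of all 185 V exons, in 90.4% of those of V genes and in 57.1% of those of pseudogenes.
Ighv7-4: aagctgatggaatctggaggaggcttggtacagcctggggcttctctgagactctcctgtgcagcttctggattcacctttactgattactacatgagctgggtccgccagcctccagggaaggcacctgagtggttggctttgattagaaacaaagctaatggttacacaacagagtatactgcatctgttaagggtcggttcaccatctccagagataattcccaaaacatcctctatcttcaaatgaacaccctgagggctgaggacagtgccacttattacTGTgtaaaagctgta
Ighv14-4: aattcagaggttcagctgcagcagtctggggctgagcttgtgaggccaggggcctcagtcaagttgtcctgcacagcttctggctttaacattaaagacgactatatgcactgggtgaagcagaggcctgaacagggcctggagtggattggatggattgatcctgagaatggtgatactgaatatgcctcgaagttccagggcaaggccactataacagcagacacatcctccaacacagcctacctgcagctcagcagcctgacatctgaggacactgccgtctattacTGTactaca
Ighv1-7: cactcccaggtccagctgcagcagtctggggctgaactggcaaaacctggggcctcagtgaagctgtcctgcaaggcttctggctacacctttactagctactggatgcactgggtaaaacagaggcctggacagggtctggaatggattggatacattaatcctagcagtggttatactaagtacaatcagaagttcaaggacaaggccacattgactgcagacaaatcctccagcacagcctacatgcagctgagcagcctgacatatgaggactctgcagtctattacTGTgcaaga
Ighv1-5: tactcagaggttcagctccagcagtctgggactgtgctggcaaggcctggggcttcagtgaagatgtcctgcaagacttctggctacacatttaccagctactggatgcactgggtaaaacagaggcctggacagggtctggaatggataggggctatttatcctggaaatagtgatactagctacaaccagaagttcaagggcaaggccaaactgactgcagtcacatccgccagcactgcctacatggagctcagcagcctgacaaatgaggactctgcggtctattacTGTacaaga
Ighv5-9-1: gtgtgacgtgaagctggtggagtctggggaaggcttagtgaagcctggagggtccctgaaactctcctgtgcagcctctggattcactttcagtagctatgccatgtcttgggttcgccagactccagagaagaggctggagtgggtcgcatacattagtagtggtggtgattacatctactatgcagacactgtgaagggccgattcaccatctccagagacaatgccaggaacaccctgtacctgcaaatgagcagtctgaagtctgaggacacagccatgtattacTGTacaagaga
Ighv1-77: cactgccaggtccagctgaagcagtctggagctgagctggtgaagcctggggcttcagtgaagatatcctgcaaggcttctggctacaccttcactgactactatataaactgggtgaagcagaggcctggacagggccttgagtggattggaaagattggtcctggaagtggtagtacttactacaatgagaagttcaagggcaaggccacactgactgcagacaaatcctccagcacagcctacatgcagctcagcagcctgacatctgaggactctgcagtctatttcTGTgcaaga
Ighv1-78: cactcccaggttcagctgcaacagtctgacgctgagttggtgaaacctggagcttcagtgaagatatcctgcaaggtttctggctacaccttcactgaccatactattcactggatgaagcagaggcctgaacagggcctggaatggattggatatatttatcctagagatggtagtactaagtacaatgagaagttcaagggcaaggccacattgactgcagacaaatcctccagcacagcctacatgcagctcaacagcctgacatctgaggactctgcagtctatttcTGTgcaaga

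These stretches lie within the V exons at chr12:114222788-114223087 (Ighv7-4), chr12:114176438-114176737 (Ighv14-4), chr12:114538495-114538794 (Ighv1-7), chr12:114513330-114513629 (Ighv1-5), chr12:113736111-113736410 (Ighv5-9-1), chr12:115861867-115862166 (Ighv1-77) and chr12:115868773-115869072 (Ighv1-78), all on the minus strand. Ighv1-77 and Ighv1-78 were 90.2% identical over the whole V exon, the highest value among these 7, and Ighv7-4 and Ighv1-5 were 57.4% identical, the lowest. Reads from similar segments can be split or misassigned. Across the locus, 22 of the 185 V exons were at least 98% identical to that of another segment, and 52 segments had a non-whole estimated count in some library. The nearest segment to Ighv7-4 was Ighv7-3 at 93.7%, to Ighv1-7 it was Ighv1-4 at 97.7%, to Ighv14-4 it was Ighv14-1 at 97.4%, and to Ighv1-5 it was Ighv1-12 at 86.2%.

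Library totals ran from 25583642 to 38728143 estimated counts. TMM scaling factors spanned 0.889 to 1.13, with Ifnar1 -/- library 2 apart at 0.681. Ebf1, a B-lineage transcription factor gene, passed 100 CPM in 5 libraries (Ifnar1 +/- 3, 4 and 5, Ifnar1 -/- 3 and 5), called B-lineage-rich below. Values without them are given in the closing section. Lists of values below follow library number, 1 to 6 for Ifnar1 +/- and 1 to 5 for Ifnar1 -/-. Ifnar1 transcript did not separate the genotypes (39.2 to 84.4 CPM, counts scaled to library size, in Ifnar1 +/- and 36.2 to 133 CPM in Ifnar1 -/-). A whole-gene count does not show whether part of Ifnar1 is deleted, so genotype means the labelled one.

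V segment transcripts were scarce in every AML and varied widely between libraries of the same genotype. Summed over the 185 segments, the 6 Ifnar1 +/- libraries had 24.9, 20.01, 20.2, 76.9, 76.8 and 10.8 CPM, and the 5 Ifnar1 -/- libraries had 3.48, 14.9, 70.7, 12.3 and 165 CPM. These sums rested on 620, 600, 562, 2119, 3187 and 333 counts and on 113, 290, 1979, 335 and 5165 counts. Ifnar1 +/- libraries 4 and 5 and Ifnar1 -/- libraries 3 and 5 were thus well above the other 7. Ifnar1 +/- libraries averaged 38.3 ± 30.2 CPM (SD, n = 6), whereas Ifnar1 -/- libraries averaged 53.3 ± 67.8 CPM (SD, n = 5). The Ifnar1 +/- values, from 10.8 to 76.9 CPM, lay within the range of the Ifnar1 -/- values, and the difference of 15.0 CPM was smaller than either SD. On the log2(CPM + 1) scale the difference had the other sign, -0.25, and it ran from -0.92 without Ifnar1 -/- library 5 to 0.38 without Ifnar1 -/- library 1. It was 0.02 without Ifnar1 +/- library 4 or 5.

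**Figure D1:**
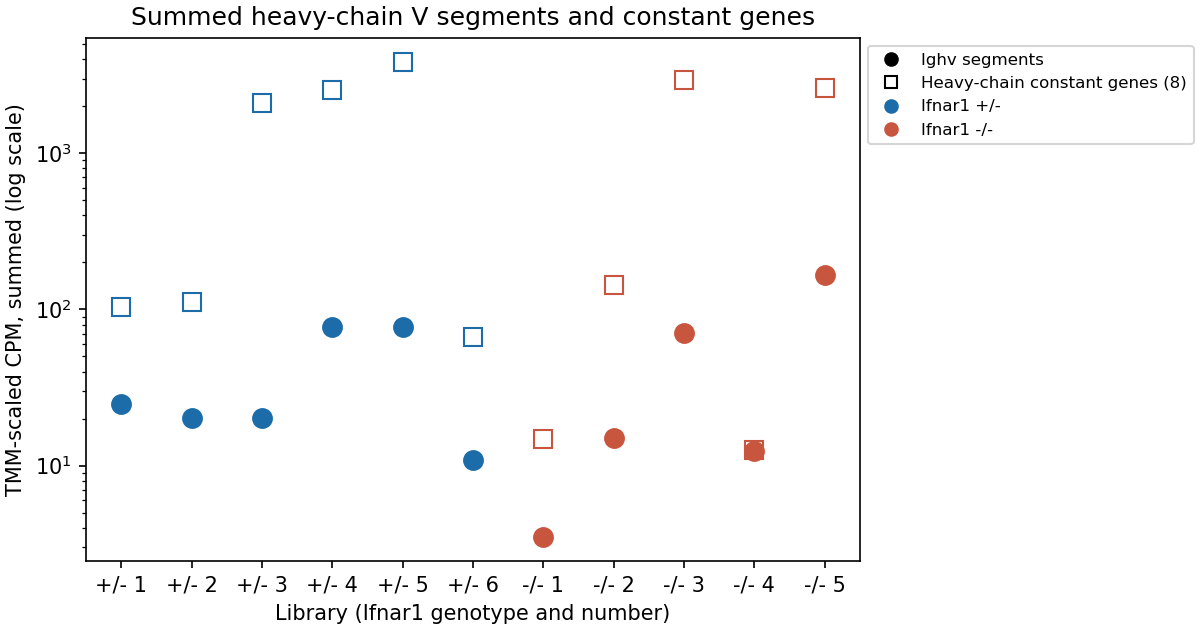
Summed TMM-scaled CPM (log axis) of the 185 V segments (filled circles) and of 8 heavy-chain constant genes (open squares), 1 library per column, coloured by genotype. Constant genes sum to 2098 to 3866 CPM in 5 libraries, and in Ifnar1 -/- library 4 both sums lie near 12 CPM.

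The sum of V segments did not simply follow the other transcripts of the B lineage. Cd79a, which encodes a signalling chain of the B cell receptor, had 1992 to 3046 CPM in Ifnar1 +/- libraries 3, 4 and 5 and Ifnar1 -/- libraries 3 and 5, and 0.401 to 33.6 CPM in the other 6. The markers thus go against a purely myeloid identity in 5 of the 11 libraries labelled AML. In those same 5 libraries Ighm, the first constant gene used, had 2069, 2494, 3663, 2932 and 2184 CPM, against 3.68 to 83.1 CPM in the rest. Ifnar1 +/- library 3, with the highest Igll1 (a surrogate light chain gene) of all libraries at 2818 CPM, had only 20.2 CPM of V segments. That was less than the 24.9 CPM of Ifnar1 +/- library 1, where Igll1 had 1.49 CPM.

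Set against the constant genes per kb of exon, V transcripts were fewer in the 5 libraries rich in Ighm. For every 100 constant-gene counts per kb there were 4.67, 15.0 and 10.1 V counts per kb in Ifnar1 +/- libraries 3, 4 and 5 and 11.98 and 32.99 in Ifnar1 -/- libraries 3 and 5. The other libraries had 154, 108 and 100.3 (Ifnar1 +/- 1, 2 and 6) and 120, 63.1 and 623 (Ifnar1 -/- 1, 2 and 4). The value of 623 came from 335 V counts against 340 constant counts. The 2 sets of libraries did not overlap in this ratio, which is a description of libraries told apart by their own transcripts and was given no test.

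The constant genes also differed in kind. Ighm made up 98.6%, 98.2%, 94.8%, 99.1% and 83.8% of constant-gene counts in the 5 B-lineage-rich libraries. In Ifnar1 +/- libraries 1, 2 and 6 and Ifnar1 -/- libraries 2 and 4, Igha, the constant gene of IgA, made up 64.4%, 58.5%, 58.4%, 41.3% and 66.2%, with 1658, 1966, 1195, 1154 and 225 counts. Ifnar1 -/- library 1 had 483 constant counts, of which 99.6% were Ighm. Igkc, the kappa light chain constant gene, had 0 counts there and 7.10 to 515 CPM in the other libraries. Igha was highest in level, at 351 CPM, in Ifnar1 -/- library 5, which also had the most Jchain (the joining chain of secreted IgA and IgM) at 34.3 CPM.

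A group of 6 segments from the middle of the locus made up much of the V counts in all 5 B-lineage-rich libraries. They were Ighv14-4, Ighv7-4, Ighv10-1, Ighv1-5, Ighv1-7 and Ighv1-11, numbers 54 to 89 in order, within 436 kb. Together they held 76.9% (95% Wilson interval 73.2% to 80.2%), 65.8% (63.8% to 67.8%) and 52.1% (50.4% to 53.9%) of V counts in Ifnar1 +/- libraries 3, 4 and 5, and 62.1% (59.9% to 64.2%) and 30.6% (29.3% to 31.9%) in Ifnar1 -/- libraries 3 and 5. In the other 6 libraries they had 0, 11 and 1 counts (Ifnar1 +/- 1, 2 and 6) and 0, 0 and 0 counts (Ifnar1 -/- 1, 2 and 4). All 6 were detected, with at least 3 counts, in each of the 5 libraries and no more than 2 of them in any other. The set was put together after its values were seen.

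Ighv7-4 was the most abundant V segment in Ifnar1 +/- libraries 3 and 4. It had 0, 0.167, 6.15, 17.2, 7.81 and 0 CPM across the 6 Ifnar1 +/- libraries and 0, 0, 7.72, 0 and 11.97 CPM across the 5 Ifnar1 -/- libraries. Values above 6 CPM thus occurred in 3 Ifnar1 +/- and 2 Ifnar1 -/- libraries, and the groups overlapped fully. In a library with 0 counts, a limit of 3 counts allows up to 0.0925 to 0.155 CPM. Ighv7-4 belongs to a family of 4 segments that held 31.5%, 25.1% and 13.1% of V counts in Ifnar1 +/- libraries 3, 4 and 5. The family held 11.8% and 9.99% in Ifnar1 -/- libraries 3 and 5.

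Ighv1-7 led in Ifnar1 +/- library 5. It had 1.76, 12.8 and 11.3 CPM in Ifnar1 +/- libraries 3, 4 and 5, 7.28 and 13.8 CPM in Ifnar1 -/- libraries 3 and 5, and 0 counts in the other 6. Ighv14-4 followed the same division, with 1.47, 4.47 and 6.76 CPM in the former and 7.37 and 17.2 CPM in the latter, and 0 counts elsewhere. Ighv1-5 was the leading segment of Ifnar1 -/- library 3 at 9.58 CPM, and was lower in Ifnar1 +/- libraries 3, 4 and 5 (3.45, 6.83 and 2.87 CPM) and in Ifnar1 -/- library 5 (0.511 CPM). Per base of exon, Ighv10-1 and not Ighv1-5 led in Ifnar1 -/- library 3. In the other 10 libraries the leading segment was the same with and without this division by length.

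Ighv10-1 had 1.150, 5.37 and 3.04 CPM in Ifnar1 +/- libraries 3, 4 and 5 and 9.14 and 3.67 CPM in Ifnar1 -/- libraries 3 and 5. Ighv1-11 had 1.55, 3.92 and 8.24 CPM and 2.82 and 3.29 CPM in the same order. All 6 segments were therefore present in both genotypes, at levels that differed severalfold among the 5 libraries.

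Ifnar1 -/- library 5 had, besides these, high values of segments that were near absent elsewhere. Ighv5-9-1, a proximal segment, had 23.1 CPM there (722 counts, 13.99% of V counts, 95% Wilson interval 13.1% to 15.0%) and at most 0.362 CPM in any other library. Ighv5-15 had 12.6 CPM there and at most 0.218 CPM elsewhere. Ighv14-3 had 6.90 CPM there, and next to it 1.66 CPM in Ifnar1 +/- library 5. Ighv5-6 was highest in Ifnar1 +/- library 5 at 5.64 CPM, followed by 2.37 CPM in Ifnar1 +/- library 1. In these libraries 39 and 19 segments had non-whole counts, holding 57.9% of the V counts of Ifnar1 -/- library 5 and 49.0% of those of Ifnar1 +/- library 5, so single values there carry assignment error of unknown size.

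The libraries poor in B-lineage transcripts shared few leading segments with the B-lineage-rich ones. Ifnar1 -/- libraries 1 and 4 had Ighv1-23 and Ighv1-77 among their leading 3. Ighv1-77 took 30.1% and 30.4% of their V counts and Ighv1-23 took 32.7% and 11.3%. In CPM, Ighv1-77 had 1.05 and 3.75 in these libraries, 1.83 in Ifnar1 +/- library 2, 0.837 in Ifnar1 -/- library 5 and at most 0.227 in the other 7. Ighv1-23 was the most widely detected segment, with at least 3 counts in 9 of 11 libraries, and its levels were 2.13, 0.7005, 0.216, 1.09, 0.0241 and 0.292 CPM across the 6 Ifnar1 +/- libraries and 1.14, 0, 0.750, 1.398 and 0.832 CPM across the 5 Ifnar1 -/- libraries.

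Around Ighv1-77 a run of neighbouring segments was counted together in Ifnar1 -/- libraries 1 and 4. Ighv1-73, Ighv1-74, Ighv1-75, Ighv1-76, Ighv1-77, Ighv1-79 and Ighv1-82, with Ighv1-23 from elsewhere in the locus, held 92.9% (95% Wilson interval 86.6% to 96.4%) of the 113 V counts of Ifnar1 -/- library 1 and 84.2% (79.9% to 87.7%) of the 335 of library 4. They held 35.2%, 22.8% and 13.5% in Ifnar1 +/- libraries 1, 2 and 6, 16.2% in Ifnar1 -/- library 2, and 0.0628% to 4.70% in the 5 B-lineage-rich libraries. This set, too, was put together after its values were seen. Members of Ighv8 in the same stretch (numbers 164 to 185) were nearly silent, since only Ighv8-12 of the 5 had any count, 1 or 2 in each of 4 libraries.

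Ighv1-79 and Ighv1-73, both in this run, are annotated as pseudogenes, which cannot encode a chain. Ighv1-79 had 56 counts (16.7% of V counts) in Ifnar1 -/- library 4 and 9 in library 1, against 0 to 9 in the other libraries. Ighv1-73 had 45 counts in Ifnar1 +/- library 1, 14 in Ifnar1 -/- library 4 and 0 to 7 elsewhere. Pseudogenes as a whole held 21.8% of V counts in Ifnar1 -/- library 4, 14.2% in Ifnar1 -/- library 1 and 8.55% in Ifnar1 +/- library 1, while the other 8 had 1.33% to 6.27%. Of the 73 pseudogene counts of Ifnar1 -/- library 4, 70 lay at numbers 164 to 185. So did 53 of 53, 18 of 20 and 11 of 11 in Ifnar1 +/- libraries 1, 2 and 6. In Ifnar1 -/- libraries 1 and 2 it was 16 of 16 and 4 of 16. In the B-lineage-rich libraries it was 0 of 8, 0 of 60 and 1 of 59 (Ifnar1 +/- 3, 4 and 5) and 1 of 124 and 7 of 69 (Ifnar1 -/- 3 and 5).

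The leading segments of the remaining libraries were in part near absent elsewhere and in part shared. In Ifnar1 +/- library 6, Ighv1-78 had 3.44 CPM (106 counts, 31.8% of V counts, 95% Wilson interval 27.1% to 37.0%), against at most 0.160 CPM elsewhere. Ighv3-6 followed there with 2.85 CPM, and had 2.65 CPM in Ifnar1 -/- library 5 and 2.001 CPM in Ifnar1 +/- library 2, whereas Ighv1-85 had 27 counts there and at most 1 elsewhere. In Ifnar1 -/- library 2, Ighv6-3 had 4.43 CPM, Ighv2-6 3.09 CPM and Ighv1-74 2.11 CPM. Ighv1-74 also had 1.65 CPM in Ifnar1 +/- library 1. Ighv2-6 had at most 0.109 CPM in any other library, while Ighv6-3 was also counted in all 5 B-lineage-rich libraries at 0.286 to 2.75 CPM.

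Ighv1-54 led in Ifnar1 +/- library 1 with 3.26 CPM and had at most 0.1001 CPM elsewhere. Ighv10-3 and Ighv1-9 were highest in Ifnar1 +/- library 2, with 3.26 and 2.23 CPM. Ighv10-3 also had 1.76 CPM in Ifnar1 -/- library 3, and Ighv1-9 had 1.96 CPM in Ifnar1 +/- library 4 and 1.82 CPM in Ifnar1 -/- library 5. Ighv11-2 stood among the leading 3 in both Ifnar1 +/- libraries 1 and 2, with 2.90 and 2.60 CPM.

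**Figure D2:**
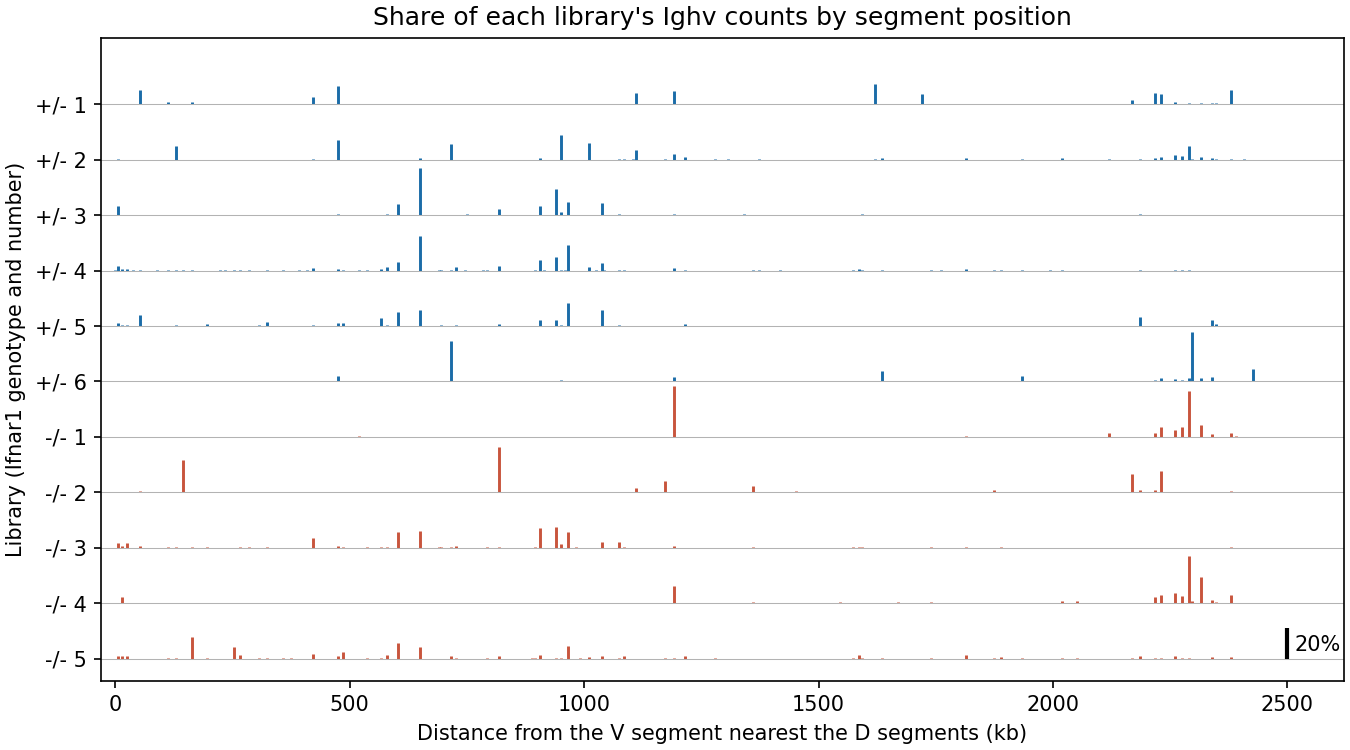
Share of a library's V counts in each of the 185 segments (bar height, with a scale bar of 20%) against distance in kb from the segment nearest the D segments, 1 row per library, coloured by genotype. Bars in the middle of the locus recur in Ifnar1 +/- 3, 4 and 5 and Ifnar1 -/- 3 and 5. Bars near the right end hold most of the share in Ifnar1 +/- 6 and Ifnar1 -/- 1 and 4.

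How much of its V transcript 2 libraries had in common was measured as the sum over segments of the smaller of the 2 shares. It reached 70.8% between Ifnar1 -/- libraries 1 and 4 and 70.2% between Ifnar1 +/- libraries 3 and 4, the 2 highest of 55 pairs. Ifnar1 +/- library 4 and Ifnar1 -/- library 3 shared 66.4%, although of different genotype. The 10 pairs among the 5 B-lineage-rich libraries ran from 37.6% to 70.2%, and the pairs of such a library with one of the other 6 reached at most 16.5%. The 25 pairs within a genotype had a median of 8.34% (2.20% to 70.8%) and the 30 pairs across genotypes 12.5% (1.42% to 66.4%). Both medians mix pairs of B-lineage-rich libraries, pairs of other libraries and pairs of 1 of each. They therefore do not show whether libraries of 1 genotype were more alike, which was not tested.

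**Figure D3:**
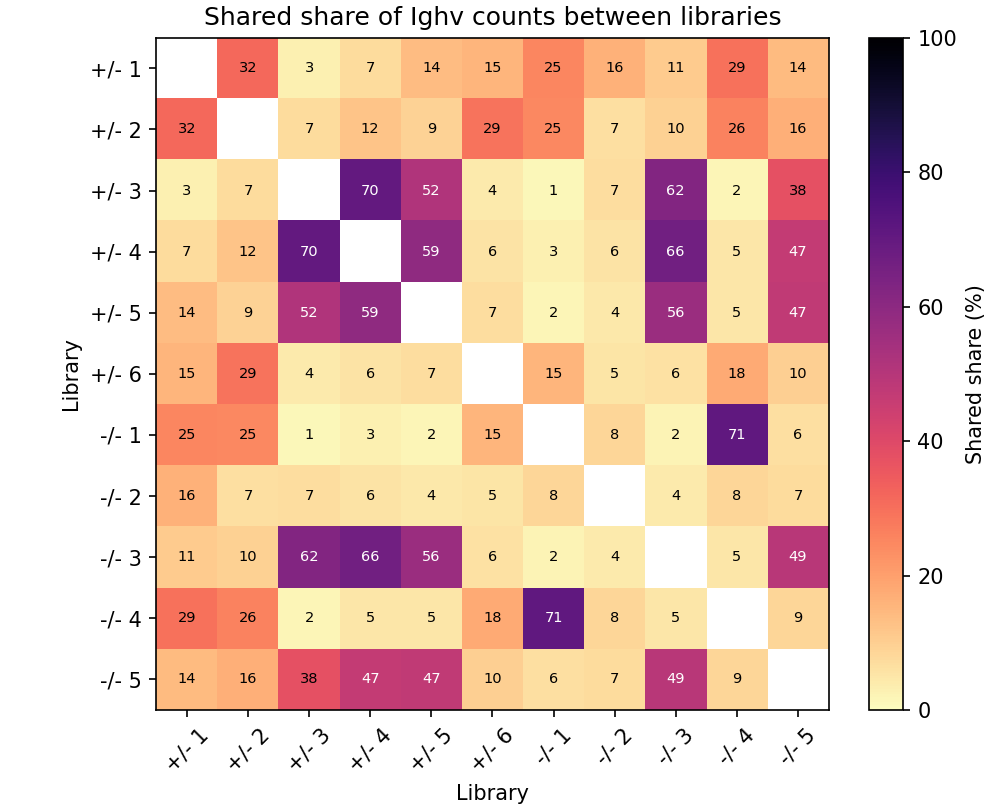
Shared share of V counts (percent) for each pair of libraries, rows and columns in the same order. Dark cells join Ifnar1 +/- 3, 4 and 5 with Ifnar1 -/- 3 and 5, and Ifnar1 -/- 1 with Ifnar1 -/- 4.

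Across the locus, 98 segments had at least 3 counts in at least 1 library, 85 of 115 V genes and 13 of 70 pseudogenes. No count at all was found for 61 segments, 48 of them pseudogenes. No segment was detected in all 11 libraries, 19 were detected in 1 library only, and 6 of those 19 in Ifnar1 -/- library 5. The family Ighv16, with 1 segment, was not detected, whereas Ighv1 had 47 of 93 members detected, Ighv5 11 of 22, Ighv2 8 of 11, Ighv14 4 of 4 and Ighv8 4 of 16.

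Numbers of detected segments went with the number of V counts. The 6 Ifnar1 +/- libraries had 20, 22, 17, 55, 57 and 15 segments with at least 3 counts, and the 5 Ifnar1 -/- libraries had 9, 11, 50, 14 and 72. The means were 31.0 ± 19.5 (SD, n = 6) and 31.2 ± 28.3 (SD, n = 5). In a random draw of 113 V counts, as many as the lowest library holds, the expected number of segments was 20.5, 21.9, 19.03, 28.9, 27.8 and 17.8 and 13.0, 14.8, 27.3, 18.4 and 34.4. At equal V depth the 4 libraries with the most V counts thus still had the most segments, from 27.3 to 34.4, and the genotypes overlapped.

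Diversity was measured as an effective number, the count of equally abundant segments that would give the same Shannon entropy. It was 15.9, 15.3, 10.98, 19.5, 22.1 and 8.88 across the 6 Ifnar1 +/- libraries and 6.67, 8.14, 20.3, 10.6 and 29.5 across the 5 Ifnar1 -/- libraries. The means, 15.5 ± 4.97 (SD, n = 6) and 15.0 ± 9.67 (SD, n = 5), differed by far less than the spread. The leading segment held 13.1%, 16.3%, 30.4%, 22.4%, 14.7% and 31.8% of V counts in Ifnar1 +/- and 32.7%, 29.7%, 13.5%, 30.4% and 13.99% in Ifnar1 -/- libraries (means 21.5% ± 8.13 and 24.1% ± 9.47). No library had more than 32.7% of its V counts in 1 segment.

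**Figure D4:**
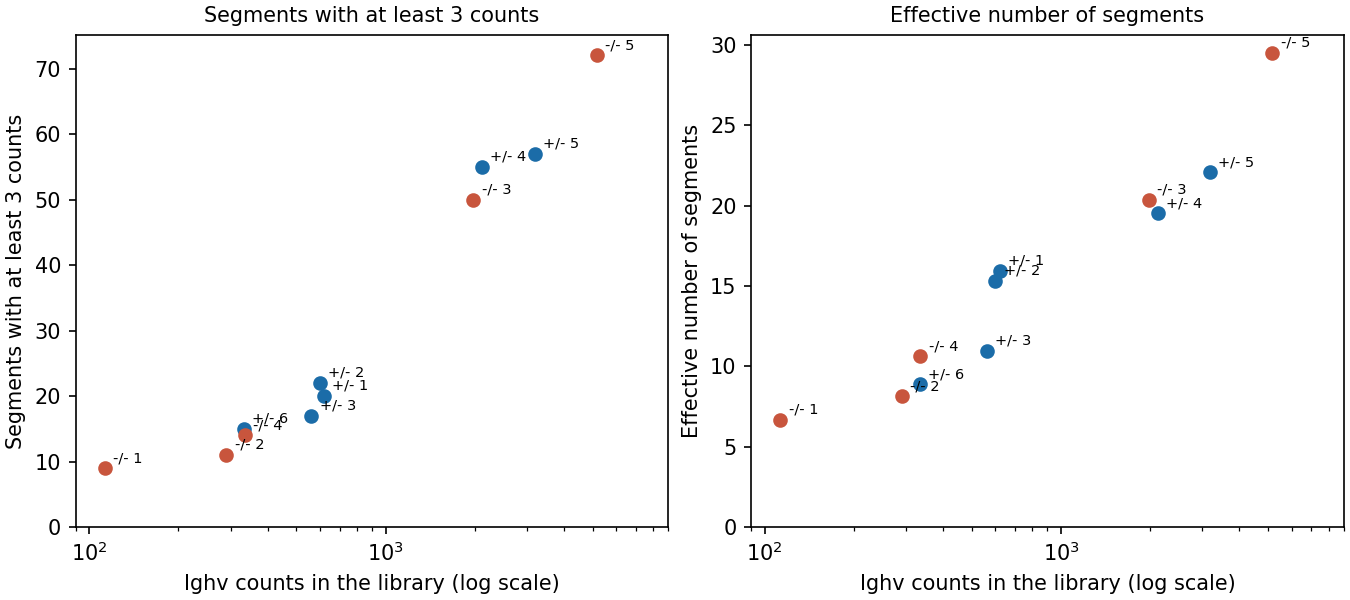
Number of segments with at least 3 counts (left) and effective number of segments (right) against a library's V counts (log axis), 1 point per library, coloured by genotype. Both measures are lowest in Ifnar1 -/- 1, with 9 and 6.67, and highest in Ifnar1 -/- 5, with 72 and 29.5.

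By family, proximal segments (Ighv2 and Ighv5) were a minority in every library. They held 12.9%, 9.17%, 7.30%, 8.12%, 13.9% and 0.901% of V counts across the 6 Ifnar1 +/- libraries. Across the 5 Ifnar1 -/- libraries they held 0% (0 of 113 counts, 95% Wilson upper bound 3.29%), 21.7%, 10.7%, 4.48% and 30.7%. The highest, 30.7% (29.4% to 32.0%), was in Ifnar1 -/- library 5, where Ighv5-9-1 and Ighv5-15 lay. The means were 8.72% ± 4.66 (SD, n = 6) and 13.5% ± 12.6 (SD, n = 5), and the genotypes overlapped.

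Distal families (Ighv1 and Ighv8) held 69.8%, 49.2%, 39.5%, 42.2%, 45.3% and 67.6% in Ifnar1 +/- and 99.1%, 47.9%, 39.1%, 94.6% and 32.3% in Ifnar1 -/- libraries. Means were 52.3% ± 13.2 (SD, n = 6) and 62.6% ± 31.8 (SD, n = 5). Nearly all of it came from Ighv1, since Ighv8 exceeded 2% only in Ifnar1 +/- library 1, at 6.6%. Intermediate families held 17.3%, 41.7%, 53.2%, 49.7%, 40.8% and 31.5% of V counts in the Ifnar1 +/- and 0.885%, 30.3%, 50.2%, 0.896% and 37.0% in the Ifnar1 -/- libraries, which overlapped.

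Family and position gave different pictures, because Ighv1 reaches from number 66 to number 185. The 92 segments nearest the D segments held 94.5%, 92.3% and 84.7% of V counts in Ifnar1 +/- libraries 3, 4 and 5 and 90.2% and 80.4% in Ifnar1 -/- libraries 3 and 5. They held 30.3%, 62.01% and 32.7% in Ifnar1 +/- libraries 1, 2 and 6 and 0.885%, 52.1% and 5.67% in Ifnar1 -/- libraries 1, 2 and 4. Ighv1-5, Ighv1-7 and Ighv1-11 belong to the distal family but lie among these 92. Farther Ighv1 segments were counted in B-lineage-rich libraries too, such as Ighv1-72 (number 167) with 4.60 CPM in Ifnar1 +/- library 5 and 2.94 CPM in Ifnar1 -/- library 5. Segments 164 to 185, the far end, held 53.5%, 65.5% and 77.3% in Ifnar1 +/- library 6 and Ifnar1 -/- libraries 1 and 4. The far end held 32.1%, 21.3% and 29.9% in Ifnar1 +/- libraries 1 and 2 and Ifnar1 -/- library 2, and 0.724% to 11.6% in the B-lineage-rich libraries. By genotype the nearer 92 segments held 66.1% ± 29.2 (SD, n = 6) and 45.8% ± 41.3 (SD, n = 5), a direction opposite to that of the proximal families and within the spread.

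**Figure D5:**
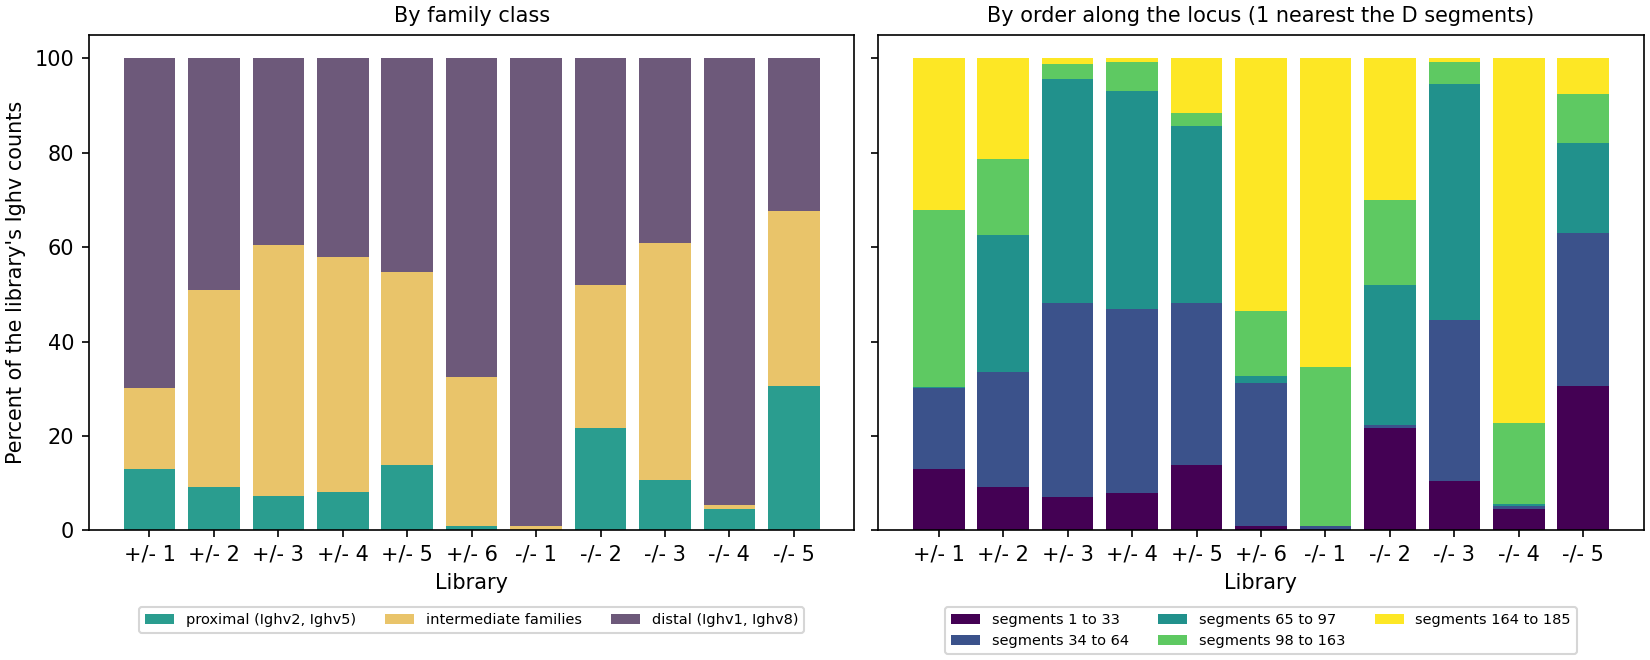
Percent of a library's V counts by family class (left) and by order along the locus (right, 5 stretches from the nearest to the farthest from the D segments), 1 bar per library. Stretches 34 to 64 and 65 to 97 together fill most of the bars of Ifnar1 +/- 3, 4 and 5 and Ifnar1 -/- 3 and 5. Stretch 164 to 185 fills most of those of Ifnar1 +/- 6 and Ifnar1 -/- 1 and 4.

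In edgeR's quasi-likelihood test over all genes, no V segment passed the threshold between genotypes. Only 13 of the 185 segments were tested, because the filter asks for a minimum count in several libraries, and the other 172 were not tested. The 13 include the 6 segments from the middle of the locus, whose counts came almost wholly from the 5 B-lineage-rich libraries. Ighv5-9-1, with 722 counts in Ifnar1 -/- library 5, was not among the 13. Of the 13, 0 had an adjusted p under 0.05 and 0 an unadjusted p under 0.05, and DESeq2 called 0 as well. Among all 14521 genes tested, edgeR called 0% and DESeq2 0.0207%, and 1.99% had an unadjusted p under 0.05 in edgeR. Higher fitted values in Ifnar1 -/- were found for 7 of the 13 segments, against 48.3% of all genes, with a median log2 fold change of 0.16 against -0.01 over all genes. Without the filter on low counts, 124 segments were tested and 0 called, and 12 (9.68%) had an unadjusted p under 0.05, against 3.85% of all 28998 genes tested in that setting. None of the 13 had all libraries of 1 genotype above all of the other, which held for 0.124% of all genes.

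The fitted change was smaller than 2 SE for all 13 segments. Among those with higher values, the smallest p belonged to Ighv2-2 (log2 fold change 1.87, SE 1.52, edgeR adjusted p = 0.9998), Ighv14-2 (1.83, SE 1.73), Ighv6-3 (1.14, SE 1.70) and Ighv14-4 (1.21, SE 2.05). Among those with lower values they were Ighv11-2 (-1.01, SE 1.33), Ighv10-3 (-1.03, SE 1.48), Ighv1-11 (-0.90, SE 1.96) and Ighv7-4 (-0.41, SE 2.01). Ighv1-7 and Ighv1-5 had -0.03 (SE 2.10) and -0.12 (SE 1.97). SEs of the 13 ran from 1.02 to 2.10, against a median of 0.42 over all genes, so changes of several fold were not detectable for these segments.

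None of the listed genes of the same pathway was called between genotypes, and many differed in level between the B-lineage-rich libraries and the others. Of 13 B-lineage transcription factor genes, all tested, 0 were called, 9 had lower and 4 higher fitted values in Ifnar1 -/- AML (median log2 fold change -0.44). Ebf1, which opens the B-lineage programme and was used to name the 5 B-lineage-rich libraries, had 530 to 744 CPM there and 0.0308 to 8.71 CPM in the others by that choice. Pou2af1, a coactivator at immunoglobulin promoters, had 270 to 463 CPM in those 5 and 0.206 to 5.27 CPM in the others. Ikzf1 (Ikaros) had 83.4 to 241 CPM over all 11 libraries, without such a division.

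For the recombination machinery, 10 of 11 listed genes were tested and 0 called (6 lower, 4 higher, median -0.06). Rag1, which cuts at the segments' signal sequences, had 1.29, 10.2 and 8.48 CPM in Ifnar1 +/- libraries 3, 4 and 5, 18.9 and 10.2 CPM in Ifnar1 -/- libraries 3 and 5, and at most 0.434 CPM elsewhere. Rag2 had 6.36, 38.1 and 35.5 CPM and 27.5 and 16.5 CPM. Ifnar1 +/- library 3, where V counts were low for its Ighm, was the lowest of the 5 in both. Dntt, which adds untemplated bases at the joints, had 175 CPM in Ifnar1 -/- library 5, 46.4 CPM in Ifnar1 +/- library 4, 7.83 CPM in Ifnar1 +/- library 5 and at most 1.201 CPM in the others.

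The list for contraction of the locus and use of distal segments had 11 of 11 tested and 0 called (7 lower, 4 higher, median -0.18). Pax5 had 106 to 201 CPM in the B-lineage-rich libraries and at most 1.07 CPM in the rest. Wapl, the cohesin release factor that Pax5 represses in pro-B cells, had 33.4, 17.2 and 21.8 CPM in Ifnar1 +/- libraries 3, 4 and 5 and 56.8 and 37.1 CPM in Ifnar1 -/- libraries 3 and 5, and 57.9 to 118 CPM in the other 6. Smc3, a cohesin subunit gene, had 54.98 to 166 CPM, Stat5a 45.8 to 140 CPM and Il7r 3.35 to 193 CPM over all libraries.

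The pre-B-cell receptor list had 10 of 10 tested and 0 called (7 lower, 3 higher, median -0.40), the constant genes 4 of 8 and 0 (3 lower, 1 higher, median -0.65) and the light-chain constant genes 3 of 4 and 0 (2 lower, 1 higher, median -0.51). Vpreb3 had 947 to 1462 CPM in the B-lineage-rich libraries and at most 11.4 CPM elsewhere. The 4 J segments were too low to test and summed to at most 1.82 CPM, in Ifnar1 -/- library 5. Of the genes that lie beside or within the locus, Adam6a had 0 counts in all 11 libraries, Adam6b at most 0.322 CPM, and 4 of the 6 listed were tested with 0 called (3 lower, 1 higher, median -0.50).

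Some of the listed markers of mature B cells, plasma cells and T cells were present in some libraries. Of 8 mature B cell genes, 6 were tested and 0 called. Their sum was 235, 383 and 474 CPM in Ifnar1 +/- libraries 3, 4 and 5 and 318 and 382 CPM in Ifnar1 -/- libraries 3 and 5. Elsewhere it was 0.908 to 42.4 CPM, the highest in Ifnar1 -/- library 2, where Bank1 alone had 41.8 CPM. Within that list Ms4a1 (CD20) had 65.2, 125 and 151 CPM in Ifnar1 +/- libraries 4 and 5 and Ifnar1 -/- library 5 and 4.67 and 2.14 CPM in the other B-lineage-rich libraries, while Fcer2a had at most 0.313 CPM. Of 8 plasma cell genes, 6 were tested and 0 called, with sums of 121 to 1328 CPM. Mzb1 and Xbp1 together made up most of each sum. Mzb1 had 684 to 1122 CPM in the B-lineage-rich libraries, and Xbp1 had 55.6 to 296 CPM over all libraries. Of the defining members of the plasma cell list, Tnfrsf17 had at most 0.108 CPM and Prdm1 at most 1.86 CPM in any library. Sdc1 (CD138) had 38.0 and 37.4 CPM in Ifnar1 +/- libraries 4 and 5, 53.1 and 28.3 CPM in Ifnar1 -/- libraries 3 and 5, the 4 libraries with the most V counts, and at most 1.65 CPM in the other 7. Jchain, in the order of Ifnar1 +/- libraries 1 to 6 and Ifnar1 -/- libraries 1 to 5, had 11.2, 4.17, 0.216, 2.51, 10.5, 5.41, 0.154, 7.16, 0.893, 1.80 and 34.3 CPM. Of 11 T cell genes, 3 were tested and 0 called, with sums of 12.2 to 333 CPM. Most of the highest sum, in Ifnar1 +/- library 2, was Trac (289 CPM) and Thy1 (41.2 CPM). Cd3e, Cd8a, Trbc1 and Trbc2 had at most 0.357, 0.130, 0.355 and 1.18 CPM in any library. Cd3d and Cd3g reached 18.3 and 5.97 CPM in Ifnar1 -/- library 2, and Cd4 reached 9.29 CPM in Ifnar1 -/- library 3. The part of these cells in the V counts was not tested.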

How the data were processed

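Gene expression in 11 AML samples was measured by bulk RNA sequencing. Per the labels' protocols, RNA came from a Qiagen micro column kit and libraries from a Clontech kit. The authors deposited estimated counts of reads per gene, unscaled, with totals of 25583642 to 38728143; between 10.03% and 11.3% of the values in each library carried a fraction. Per the submitters' processing notes bcl2fastq and DRAGEN were used. Their roles and versions, the genome build, the annotation and the handling of multi-mapping reads were not given in the sources used here. Identical copies of rows (287 of 55774) were dropped. Symbols were matched by Ensembl identifier (55141 of 55487), and positions and sequences come from GENCODE M21 on GRCm38, which matched all 185 segments.

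Counts were rounded and tested with edgeR 4.0.16 (R 4.3.3; filterByExpr, TMM, glmQLFit with robust=TRUE, two-sided, Benjamini-Hochberg over 14521 genes, threshold 0.05), after a check on simulated counts. SE is the absolute log2 fold change over the square root of F. CPM are TMM-scaled. Shares have 95% Wilson intervals, which, like the limit of 3 counts, cover counting error only. Sums, shares and diversity were given no test. V exons were compared by edit distance (edlib 1.3.9.post1), as a share of the shorter exon. No pair of the 25 within a genotype agreed within sampling noise. Alternatives were DESeq2 1.42.0, other scaling, filters, minimums and indices, leaving out each library, and the replicate number as a block; a division by exon length and leaving out the 5 B-lineage-rich libraries were added after seeing the data. Members and lists were chosen with earlier results of these data known. Segments were named if among a library's 3 most abundant, the 10 highest in level in any library, or the 4 per direction with the smallest p; list genes mostly if among the 3 highest. Others named were chosen after their values were seen.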

Additional observations from a re-analysis of the deposited data

Results flagged for a closer look

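Among 16 groups of per-library values, 2 held a library far from the rest of its genotype by Dixon's criterion, which chance meets in about 1 in 20 groups. Pseudogenes held 8.55% of V counts in Ifnar1 +/- library 1, and the next of the 6 libraries had 3.33%. V counts per 100 constant-gene counts, both per kb of exon, were 623 in Ifnar1 -/- library 4, and the next of the 5 libraries had 120.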

How the results depend on the processing

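Differences between genotypes (Ifnar1 -/- minus Ifnar1 +/-) in summed level, segments detected, effective number and leading share moved by less than the spread between libraries under every planned scaling, pseudocount, minimum and index, and when segments with non-whole counts were dropped, but signs turned. The leading share, 2.61 points higher, was -4.63 over segments with whole counts and -4.79 over libraries with at least 1000 V counts. Only Ifnar1 +/- libraries 4 and 5 and Ifnar1 -/- libraries 3 and 5, all B-lineage-rich, had that many. The effective number went from -0.40 to 1.08 over segments with whole counts, and segments detected from 0.20 to -2 at a minimum of 1 count. The proximal share differed by 4.79 percentage points by family, by -20.3 by position, by -0.93 as a share of detected segments and by 9.65 over libraries with at least 1000 V counts. Leaving out 1 library gave -0.92 to 0.38 for the summed level (log2 scale, -0.25 with all), -10 to 5.75 for segments detected, -4.01 to 1.69 for the effective number, 0.435 to 5.23 points for the leading share and 0.497 to 8.17 points for the proximal share. Without the 5 B-lineage-rich libraries, a setting chosen after seeing the data that leaves 3 per genotype, these differences were -0.92, -7.67, -4.91, 10.5 and 1.08. At a minimum of 3 counts, the 20, 22 and 15 segments detected in Ifnar1 +/- then lay above the 9, 11 and 14 in Ifnar1 -/- libraries. Their V counts were 620, 600 and 333 against 113, 290 and 335, and this was given no test. The genotypes overlapped at a minimum of 1 count (36, 37 and 25 against 13, 21 and 27) and of 10 counts (13, 12 and 6 against 2, 6 and 9). They also overlapped in a draw of 113 V counts (20.5, 21.9 and 17.8 against 13.0, 14.8 and 18.4). In that setting edgeR tested 4 V segments and called 0 genes, and Ighv1-23 had -0.26 in place of 0.16. DESeq2 called 3 genes, none a V segment, and the other settings 0. The median log2 fold change of tested segments (0.16) was -0.55 to 0.78 with 1 library left out, when 2 to 20 segments were tested.

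Replicate numbers gave no clear pairing of the samples. Deviations of same-numbered libraries correlated at -0.55 to 0.58, 4 of 5 positive, and 0 of 5 matched their own number best. These deviations also hold the difference between B-lineage-rich and other libraries, so the check cannot decide whether the numbers mark pairs. With the replicate block edgeR called 0 genes, the median was -1.15, and the signs of Ighv10-1 (-1.15) and Ighv14-2 (-1.37) turned; the cause was not tested. With 1 library left out, signs also turned for Ighv1-23 (-0.11 to 0.84), Ighv1-5 (-3.999 to 0.20), Ighv1-7 (-1.24 to 0.30), Ighv10-1 (-0.79 to 0.98) and Ighv14-4 (-0.20 to 1.55). The lowest library holds 113 V counts, which limits its shares.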

Other observations

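Ighv11-2 is a segment known for its use by B-1a cells that bind phosphatidylcholine. It was detected, with at least 3 counts, in 8 of 11 libraries, at 2.90, 2.60, 0.144, 0.647, 1.32 and 0.389 CPM across the 6 Ifnar1 +/- libraries and 0, 0.0515, 0.679, 0 and 2.55 CPM across the 5 Ifnar1 -/- libraries. In Ifnar1 +/- libraries 1 and 2 it took 11.6% and 13.0% of V counts, and in Ifnar1 -/- library 5 1.55%. In Ifnar1 +/- libraries 1 and 2 Ebf1 had only 1.37 and 8.71 CPM. Immunoglobulin constant genes were present there, Igkc at 82.4 and 53.3 CPM and Igha at 66.7 and 65.6 CPM. Ighv11-1, a near neighbour of Ighv11-2, is 98.7% identical to it over the V exon, so reads of this pair can be misassigned.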
